A study of Homo sapiens with 12 samples.

Results

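The genes described here encode the enzymes that build purine and pyrimidine nucleotides and their deoxy forms, together with enzymes that salvage them or clear them. They were taken from a list of 34 gene names, of which 32 could be matched to a named probe among 18852 genes. ADSS2 and GMPS were not matched and are not analysed here. RNA came from HepG2, a human hepatocellular carcinoma line used as a model of liver cells, and was hybridised to Illumina HumanHT-12 BeadChips, on which the brightness of a probe follows the amount of its transcript. The high glucose group had 6 arrays of cells kept for 8 h in 25 mM glucose. The low glucose group had 6 arrays of cells kept for the same time without added glucose by the study's methods (0 mM), or in 2.7 mM glucose by the sample labels, a difference the files do not settle. The methods state that HepG2 stocks grew in 25 mM glucose, and that the cultures of this experiment first stood in 2.7 mM glucose for 16 h. None of the arrays shows the cells at the start of the 8 h, so "rose" and "fell" below mean higher and lower in high glucose than in low glucose. The methods call the replicates biological without saying which cultures shared a passage. The p-values therefore set group differences against the spread within the groups of these 12 samples, and speak for these cultures only.

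Purine nucleotides are built on phosphoribosyl pyrophosphate (PRPP), a ring being assembled step by step to inosine monophosphate (IMP), from which the adenine and guanine nucleotides branch. Pyrimidines are made the other way round: the ring of uridine monophosphate (UMP) is closed first and then joined to PRPP. Ribonucleotide reductase turns ribonucleotides into the deoxynucleotides of DNA, and thymidylate is made in a further step that uses folate. Cells also reuse bases and nucleosides through salvage enzymes. Several of these genes, among them TYMS, TK1 and RRM2, are known for high levels in the S phase of dividing cells.

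The hepatocyte markers ALB, AFP, APOA1, APOB, TTR, TF, FGB and SERPINA1 all had group means from 2194 to 28153 intensity units, where the median over all probes was 90.8. Of 8 markers of blood, endothelial and mesenchymal cells, 6 had group means of 209 units or less, and CD68 and ACTA2 were bright (4988 and 7405 in high glucose). FGB and ACTA2 rose (log2 changes 0.53 and 0.56), APOB and CD68 fell (-0.22 and -0.16), and VWF, a dim probe, rose by 0.20. The part of these marker changes in the results below was not tested, and in bulk RNA a change in the makeup of the culture and a change per cell cannot be told apart. Over genes, r was 0.994 to 0.997 within a group and 0.984 to 0.988 between a high and a low glucose array. No array stood apart from its group.

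Of the 32 genes, 15 rose in high glucose, 2 fell and 15 did not pass the test. Over all genes tested, 16.6% rose and 13.3% fell at the same threshold, an adjusted p under 0.05 from limma with Benjamini-Hochberg adjustment. The median log2 change of the 32 genes was 0.17, beside 0.01 over all genes. These genes are brighter than most, since 30 of them, but only 11765 of all 18852 genes, had a mean over 100 units, and bright genes were called more often. With dim genes left out (a minimum of 100 units on at least 6 arrays), 18 of the 30 remaining members rose and 2 fell, where 27.3% of the 11751 genes tested rose and 22.0% fell. All 6 high glucose arrays lay above all 6 low glucose arrays for 12 of the 32 genes, and below them for 1, beside 10.2% and 8.32% of all genes. Those shares include the dim genes, and none was taken over bright genes alone, so brightness may widen this contrast too. The changes were small. The largest rise was 1.48-fold, for RRM2B, and the larger of the falls was 1.29-fold, for UCK2.

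**Figure D1:**
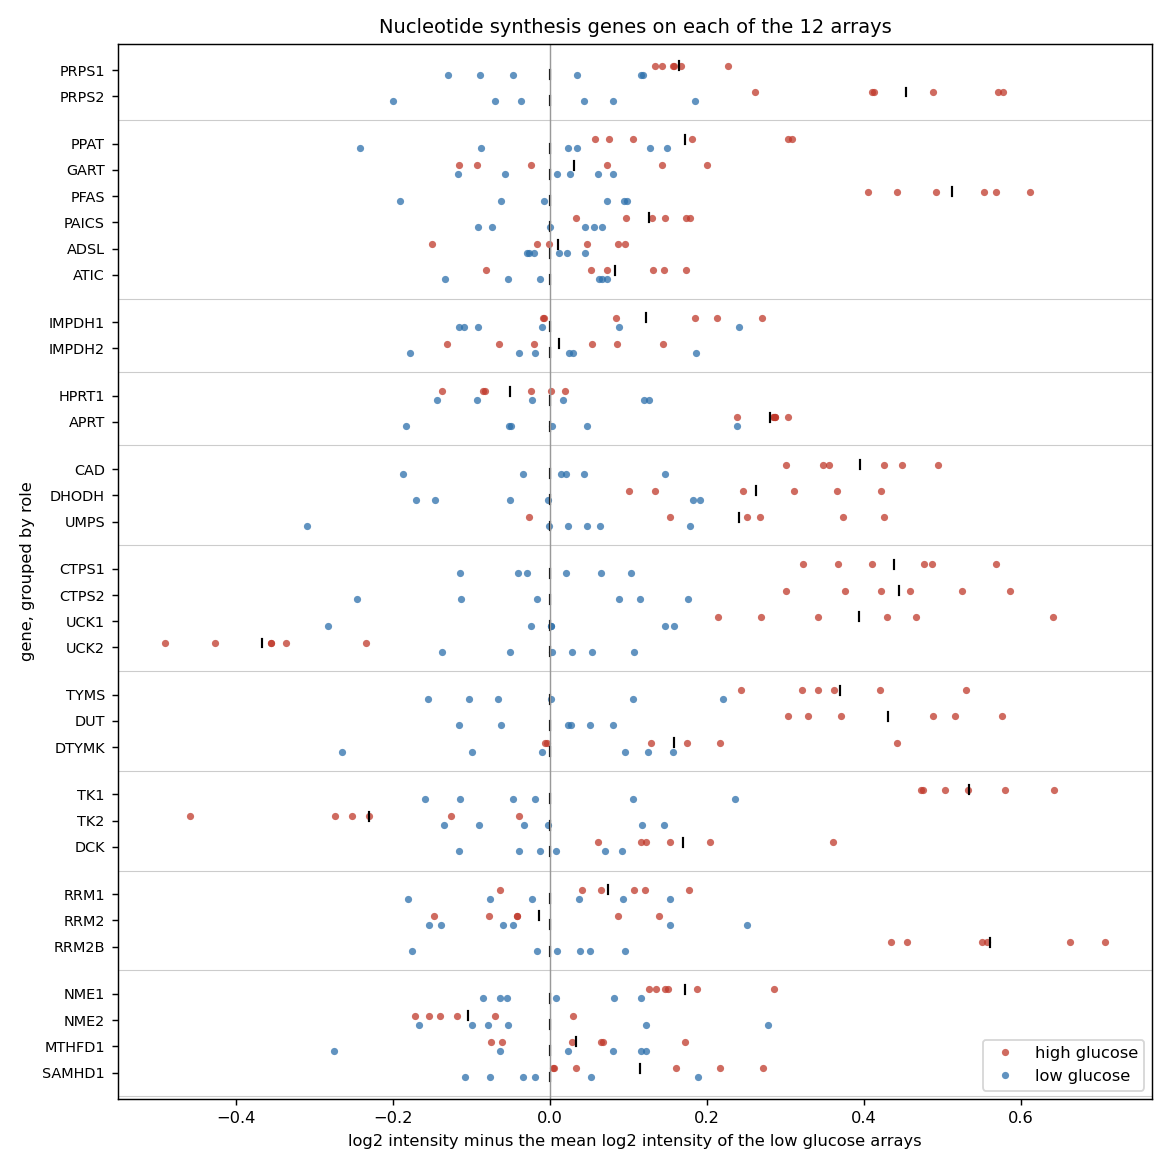
Log2 intensity of each of the 32 genes (rows, grouped by role) on each of the 12 arrays, shown relative to the gene's mean in low glucose. Points are arrays, red for high and blue for low glucose, and black ticks are group means. For 12 genes, such as PFAS, TK1 and RRM2B, all red points lie to the right of all blue points, and for UCK2 they lie to the left.

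The enzymes that make PRPP, the shared starting material of purine and pyrimidine nucleotides, both rose. PRPS2 had intensities of 748, 862 and 977 units (lowest, median and highest of 6 arrays) in low glucose. In high glucose the same values were 1030.0, 1175 and 1283 units, so the groups did not overlap. Its log2 change was 0.45 (standard error 0.07, adjusted p = 5.5e-06 from limma), and its second probe gave 0.51. PRPS1, which encodes the other widely expressed isoform, stood at 2447, 2667 and 2907 units in low glucose and at 2939, 2985 and 3134 in high glucose. The groups of PRPS1 did not overlap either, but the gap between them was narrow. Its log2 change was 0.16 (standard error 0.05, adjusted p = 0.020), and the adjusted p rose above 0.05 without low glucose replicate 3 or 4, reaching at most 0.061, and was 0.062 after cyclic loess normalization.

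Among the 6 enzymes that carry PRPP to IMP, only PFAS passed the test. PFAS, which encodes the glutamine-using synthase of the fourth step of the pathway, stood at 1205, 1407 and 1472 units in low glucose and at 1822, 1977 and 2102 in high glucose. Every high glucose array of PFAS was above every low glucose array. The log2 change was 0.51 (standard error 0.06, adjusted p = 7.9e-08), a 1.43-fold rise. PPAT, the amidotransferase that commits PRPP to purines, had a log2 change of 0.17 (standard error 0.07, adjusted p = 0.057). PAICS, which encodes a bifunctional enzyme of the middle of the pathway, had one of 0.13 (standard error 0.05, adjusted p = 0.053). Both lay just outside the threshold, and with dim genes left out both lay just inside it (adjusted p = 0.039 and 0.033). GART, ADSL and ATIC, which encode the remaining enzymes, had log2 changes of 0.03, 0.01 and 0.08 (adjusted p = 0.78, 0.92 and 0.30), with groups that overlapped.

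Probes of a gene did not always give the same value here. The 3 PAICS probes gave log2 changes of 0.13, 0.14 and 0.55, the last from a dim probe with means of 192 units in low and 279 in high glucose (adjusted p = 8.7e-06 over all probes). Of the GART probes, the brightest gave 0.03 and the next 0.24 (adjusted p = 0.0088 over all probes), and the dimmest gave -0.07. Probe sequences were not used here, so the transcripts behind each probe are unknown.

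PPAT and PAICS stand head to head on chromosome 4. Their RefSeq start sites in GRCh38.p14 lie 137 bases apart, and their promoter windows (250 bases before to 50 after the start) share 236 bases. The PAICS window, chr4:56435502-56435801 (plus strand), is shown because a pair of members shares most of it. Their log2 changes were alike by the probes used (0.17 for PPAT and 0.13 for PAICS), and their levels were not. The capitals mark its only E-box, CACGTG, the core of sites bound by MYC, ChREBP and related factors.
PAICS: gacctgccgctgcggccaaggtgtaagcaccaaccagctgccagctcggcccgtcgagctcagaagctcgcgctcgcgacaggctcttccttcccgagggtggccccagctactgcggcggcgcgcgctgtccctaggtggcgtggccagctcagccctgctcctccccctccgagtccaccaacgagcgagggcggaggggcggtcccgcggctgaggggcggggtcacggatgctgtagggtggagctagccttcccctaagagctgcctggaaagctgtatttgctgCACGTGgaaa
The word begins at position 41 counted from the PAICS start and so lies in the first transcribed bases of PAICS and upstream of PPAT. The values of the pair were 1236, 1491 and 1621 units in low and 1521, 1615 and 1811 in high glucose for PPAT. For PAICS they were 8651, 9361 and 9651 in low and 9434, 10146 and 10433 in high glucose. In both genes the groups overlapped.

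Downstream of IMP, neither IMP dehydrogenase gene passed the test. IMPDH1 had 2328 ± 237 units (SD, n = 6) in low and 2531 ± 206 in high glucose (log2 change 0.12, adjusted p = 0.18), and IMPDH2, the isoform usually linked with proliferating cells, had 7178 ± 592 and 7226 ± 509.5 (log2 change 0.01, adjusted p = 0.93). The dim IMPDH1 probes, with means of 118 units or less, gave log2 changes of -0.23 and -0.09, against the sign of the bright one. The salvage genes differed from each other. APRT, which recycles adenine, stood at 2373, 2652 and 3179 units in low glucose and at 3179, 3287 and 3325 in high glucose. The groups met at their edges, with 1 low glucose array as high as the lowest high glucose array. The log2 change of APRT was 0.28 (standard error 0.06, adjusted p = 3.2e-04), and its second probe gave 0.30. HPRT1, which recycles hypoxanthine and guanine, had 5786 ± 441 units (SD, n = 6) in low and 5573 ± 232 in high glucose (log2 change -0.05, adjusted p = 0.56).

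In the pathway to UMP, CAD and DHODH rose and UMPS lay just outside the threshold. CAD encodes the large multifunctional protein that carries out the opening steps. It stood at 278, 320.1 and 350.2 units in low glucose and at 389.9, 415 and 446 in high glucose, without overlap. Its log2 change was 0.40 (standard error 0.07, adjusted p = 9.7e-05). DHODH, the enzyme of the mitochondrial inner membrane that oxidises dihydroorotate, stood at 242, 267 and 311 units in low and at 292, 330.3 and 365 in high glucose. These groups overlapped, and the log2 change was 0.26 (standard error 0.09, adjusted p = 0.019). Without high glucose replicate 1, high glucose replicate 3 or low glucose replicate 2 the adjusted p of DHODH rose above 0.05, reaching at most 0.057. UMPS, which encodes the bifunctional enzyme that finishes UMP, stood at 185, 235 and 259.6 units in low and at 225, 275 and 308 in high glucose, with overlap (log2 change 0.24, adjusted p = 0.051). UMPS passed the test with dim genes left out (adjusted p = 0.030) and after normexp background correction (0.045). It also passed without high glucose replicate 6 or low glucose replicate 4 (0.017 at the lowest). In the fit on the mean of probes its adjusted p was 0.041, but UMPS has only 1 probe. Its own values were therefore the same in that fit.

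Both CTP synthetase genes rose by nearly the same amount. CTPS1, whose product aminates UTP to CTP and is known for its role in proliferating lymphocytes, stood at 1275, 1377 and 1483 units in low glucose and at 1727, 1879 and 2048 in high glucose. CTPS2 stood at 1261, 1534 and 1690.1 units in low and at 1843, 2029.7 and 2246 in high glucose. In both genes every high glucose array lay above every low glucose array. The log2 change was 0.44 for CTPS1 (standard error 0.06, adjusted p = 5.3e-07) and 0.44 for CTPS2 (standard error 0.07, adjusted p = 5.5e-06). The next brightest CTPS2 probe gave 0.54, and its remaining probes, with means of 173 units or less, gave -0.08 and -0.00.

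The uridine-cytidine kinase genes, whose products return uridine and cytidine to the nucleotide pool, moved in opposite directions. UCK2 stood at 3000.3, 3337 and 3558 units in low glucose and at 2349, 2579.8 and 2806 in high glucose, so that all high glucose arrays lay below all low glucose arrays. Its log2 change was -0.37 (standard error 0.06, adjusted p = 4.7e-06). UCK1 stood at 92.8, 113 and 126 units in low and at 131, 147 and 176 in high glucose. Its groups did not overlap, with a log2 change of 0.39 (standard error 0.09, adjusted p = 0.0014), but the probe is dim and background was not subtracted.

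**Figure D2:**
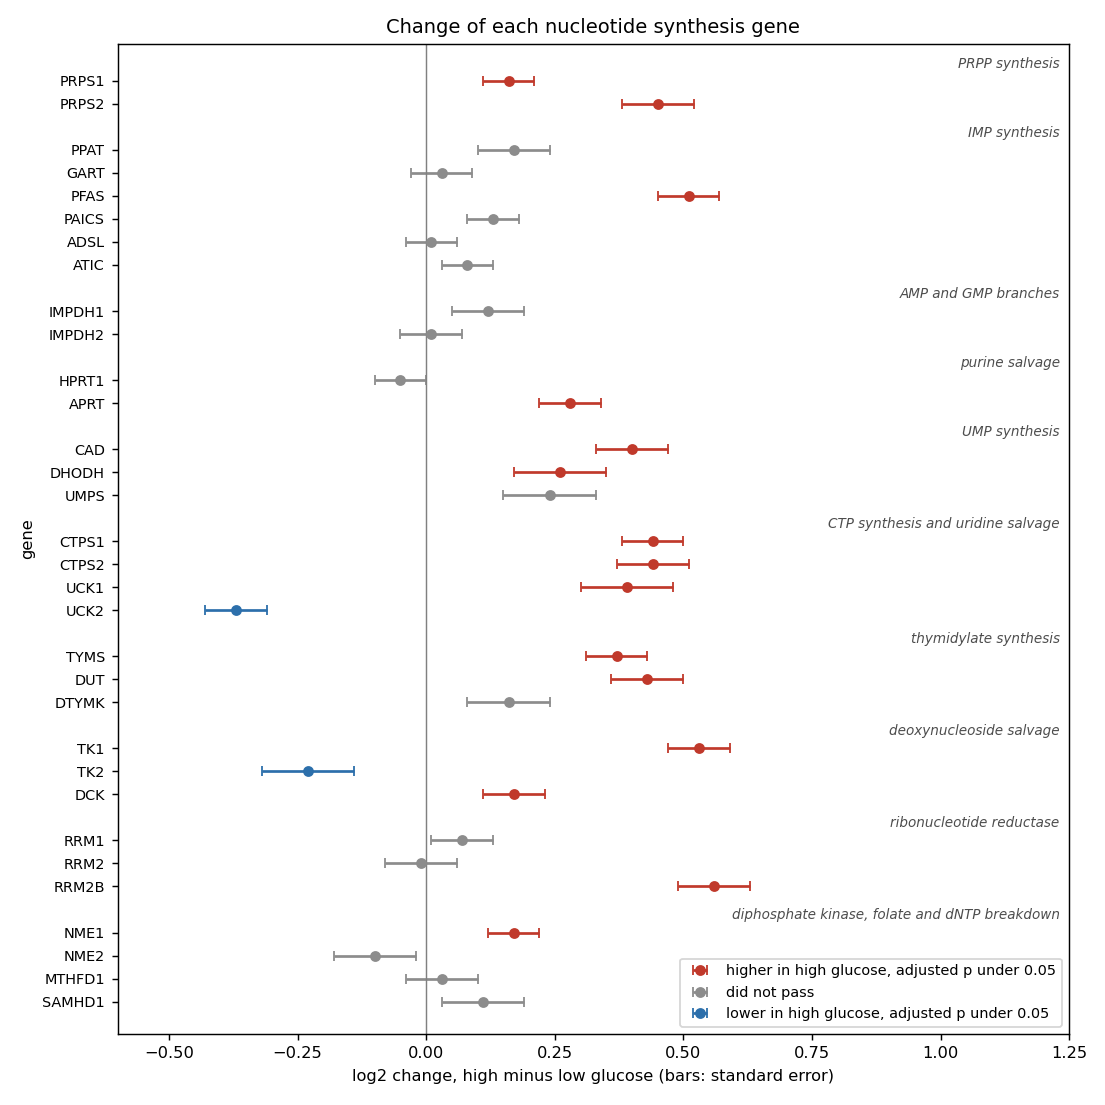
Log2 change, high minus low glucose, of each of the 32 genes (rows, by role), with bars of 1 standard error from limma. Red marks the 15 genes that rose, blue the 2 that fell and grey the 15 that did not pass. Changes run from -0.37 (UCK2) to 0.56 (RRM2B).

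In thymidylate synthesis TYMS and DUT rose. TYMS, the enzyme that methylates dUMP to dTMP, stood at 4215, 4594 and 5472 units in low glucose and at 5559.9, 5995 and 6781 in high glucose. DUT, which clears dUTP and so supplies dUMP, stood at 377, 416 and 432 units in low and at 504, 550.4 and 609 in high glucose. The groups of neither gene overlapped. The log2 change was 0.37 for TYMS (standard error 0.06, adjusted p = 2.1e-05) and 0.43 for DUT (standard error 0.07, adjusted p = 1.6e-05). The DUT probes gave 0.43, 0.66 and 0.08, the last not passing the test over all probes (adjusted p = 0.56). TYMS partly overlaps the neighbouring gene ENOSF1. DTYMK, the kinase of the next step, was dim, with 76.2 ± 8.20 units (SD, n = 6) in low and 85.2 ± 10.3 in high glucose (log2 change 0.16, adjusted p = 0.17), a level at which a change is hard to see.

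The thymidine kinase genes also differed in direction. TK1, the cytosolic kinase of S phase cells, stood at 1116, 1218 and 1467 units in low glucose and at 1729, 1785 and 1945 in high glucose. The groups did not overlap, and the log2 change was 0.53 (standard error 0.06, adjusted p = 1.1e-07). TK2, the mitochondrial kinase that serves mitochondrial DNA, stood at 219, 237 and 266 units in low and at 175, 204 and 234 in high glucose. Its groups overlapped and its fall was at the edge of the threshold (log2 change -0.23, standard error 0.09, adjusted p = 0.048). Leaving out 1 array ended the TK2 call for 8 of the 12 arrays, namely high glucose replicates 1, 2, 3 and 6 and low glucose replicates 1, 3, 5 and 6, with an adjusted p of at most 0.14. DCK, the deoxycytidine kinase, had 1048 ± 54.8 units (SD, n = 6) in low and 1180.2 ± 88.5 in high glucose. Its groups overlapped, with a log2 change of 0.17 (standard error 0.06, adjusted p = 0.035). The call ended without high glucose replicate 1, 2 or 5 or low glucose replicate 1 or 2 (adjusted p of at most 0.12).

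Ribonucleotide reductase consists of a large subunit and either of 2 small ones, and only the gene of the alternative small subunit rose. RRM2B, known as a target of p53 that supplies deoxynucleotides outside S phase, stood at 387, 445 and 467 units in low glucose and at 591, 642 and 714 in high glucose. Every high glucose array lay above every low glucose array. The log2 change was 0.56 (standard error 0.07, adjusted p = 2.4e-07), and its dim second probe gave 0.67. RRM2, the S phase small subunit, stood at 896, 960.4 and 1186 units in low and at 900.0, 968 and 1098 in high glucose, with groups that overlapped almost fully. Its log2 change was -0.01 (standard error 0.07, adjusted p = 0.92). RRM1, the large subunit, had 6465 ± 535 units (SD, n = 6) in low and 6795 ± 382 in high glucose (log2 change 0.07, adjusted p = 0.40).

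Promoters of all 5 members with a word of the E2F type, a site known from S phase genes, are shown next to those of TK1 and RRM2, S phase genes in which the word was not found. TYMS, DUT, PRPS2, DCK and TK1 rose, and GART and RRM2 did not pass the test. Of all 32 members, 15 rose. The DCK call ended under several alternatives, and the second brightest GART probe rose (log2 change 0.24, limma adjusted p = 0.0088 over all probes). A link between these words and the calls was not tested. The stretches run from position -130 to 30 around a RefSeq start site in GRCh38.p14, and for GART from -250 to -91. DUT, GART, TK1 and RRM2 have more than 1 start site, and a window of only 1 is shown for each. Other windows of DUT and GART held no E2F-type word, and the other TK1 window held no CCAAT box. They are TYMS chr18:657523-657682 (plus strand), DUT chr15:48332067-48332226 (plus strand), PRPS2 chrX:12791282-12791441 (plus strand), DCK chr4:70993519-70993678 (plus strand), GART chr21:33542208-33542367 (minus strand), TK1 chr17:78187023-78187182 (minus strand) and RRM2 chr2:10122609-10122768 (plus strand). Capitals mark words of the E2F type (TTTCCCGC, TTTCGCGC, TTTGCCGC or TTTGGCGC) in TYMS, DUT, PRPS2, DCK and GART, the E-box in DCK, and the CCAAT box in TK1 and RRM2, each on either strand.
TYMS: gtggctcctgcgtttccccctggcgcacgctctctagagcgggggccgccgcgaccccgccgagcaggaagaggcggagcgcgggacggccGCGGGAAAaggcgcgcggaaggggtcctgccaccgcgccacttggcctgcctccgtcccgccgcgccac
DUT: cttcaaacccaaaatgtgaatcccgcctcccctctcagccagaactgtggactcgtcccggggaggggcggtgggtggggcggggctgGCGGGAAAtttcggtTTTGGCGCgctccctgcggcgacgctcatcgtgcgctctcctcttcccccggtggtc
PRPS2: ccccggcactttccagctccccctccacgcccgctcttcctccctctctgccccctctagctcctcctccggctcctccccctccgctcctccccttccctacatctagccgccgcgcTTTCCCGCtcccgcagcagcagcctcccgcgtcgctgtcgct
DCK: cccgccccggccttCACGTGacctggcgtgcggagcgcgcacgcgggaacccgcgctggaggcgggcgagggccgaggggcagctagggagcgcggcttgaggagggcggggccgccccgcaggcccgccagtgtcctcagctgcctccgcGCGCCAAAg
GART: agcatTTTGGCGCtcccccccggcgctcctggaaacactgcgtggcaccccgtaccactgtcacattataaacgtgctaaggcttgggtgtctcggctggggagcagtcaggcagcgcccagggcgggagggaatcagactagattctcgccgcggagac
TK1: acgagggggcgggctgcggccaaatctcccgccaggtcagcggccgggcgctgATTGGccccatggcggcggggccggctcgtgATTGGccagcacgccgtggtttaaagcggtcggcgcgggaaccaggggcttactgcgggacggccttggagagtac
RRM2: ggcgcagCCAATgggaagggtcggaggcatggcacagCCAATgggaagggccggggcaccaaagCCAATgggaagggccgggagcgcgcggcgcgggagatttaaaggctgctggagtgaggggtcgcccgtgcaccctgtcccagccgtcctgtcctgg
The E2F-type words begin at position -39 in TYMS, -42 and -27 in DUT, -12 in PRPS2, 22 in DCK and -245 in GART. The TK1 window shown has CCAAT boxes at -77 and -46, and the RRM2 window shown has them at -123, -93 and -66. Neither window holds an E2F-type word. The capitals of no pair of motifs overlap in these stretches.

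Of the 32 measured genes, 29 had a promoter window in the RefSeq table. At least 1 E2F-type word was present in 5 of them (17.2%), namely TYMS, DUT, PRPS2, DCK and GART, beside 5.3% of the 14873 measured genes with a window. The E-box CACGTG was present in 7 (24.1%), namely ATIC, DCK, DHODH, MTHFD1, NME1, PAICS and PPAT, beside 10.8%. PAICS and PPAT are both counted for the same word, which lies in the stretch their windows share. Of these 7 genes 3 rose (DCK, DHODH and NME1), beside 15 of all 32 members, a share that includes members without a window. The CCAAT box (CCAAT) was present in 41.4% beside 42.5%, the CHR-type words TTTGAA and TTCGAA in 17.2% beside 17.8%, and the GC box GGGCGG in 79.3% beside 63.8%. The stress-response word TGATGNAA was present in 0 of the 29, beside 3.8%. Each word was sought on both strands, a gene with several windows counting once. Such matches describe the letters of the window and not the binding of a factor.

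NME1 and NME2 encode nucleoside diphosphate kinases, which turn nucleoside diphosphates into triphosphates, and they lie next to each other on chromosome 17. NME1 stood at 20423, 21319.5 and 23477 units in low glucose and at 23649, 24014 and 26403 in high glucose. The groups did not overlap, by a narrow margin, and the log2 change was 0.17 (standard error 0.05, adjusted p = 0.0094). The other NME1 probes gave 0.17 and 0.56 (adjusted p = 0.025 and 4.4e-09 over all probes). NME2 had 356 ± 43.0 units (SD, n = 6) in low and 329.5 ± 17.2 in high glucose (log2 change -0.10, adjusted p = 0.40), and none of its 4 probes passed the test. A read-through transcript joins the genes and their sequences are alike, so a probe of one may also report the other. The NME1 promoter has an E-box 35 bases after the start, in capitals in this stretch from -100 to 50, chr17:51153459-51153608 (plus strand), in GRCh38.p14.
NME1: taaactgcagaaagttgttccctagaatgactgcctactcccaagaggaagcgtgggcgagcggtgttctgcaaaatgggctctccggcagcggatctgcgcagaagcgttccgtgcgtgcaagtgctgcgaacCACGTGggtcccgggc

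SAMHD1, which breaks deoxynucleotides down and so opposes the enzymes above, was dim, with 89.8 ± 7.01 units (SD, n = 6) in low and 97.2 ± 7.96 in high glucose (log2 change 0.11, adjusted p = 0.32). MTHFD1, the cytosolic folate enzyme that supplies formyl groups for the purine ring, had 539 ± 53.5 units in low and 549.6 ± 35.0 in high glucose (log2 change 0.03, adjusted p = 0.81). Neither differed by more than the spread between arrays.

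Paralogous enzymes were set against each other within each array, which asks whether they changed unequally and says nothing of their levels relative to each other. For each of 7 pairs the log2 ratio of the genes was compared between the groups by a two-sided exact permutation test over the arrays, with Benjamini-Hochberg adjustment over the 7 pairs. The smallest p this test can give is 0.0022. The ratio of TK1 to TK2 rose by 0.76 on the log2 scale (standard error 0.11, exact p = 0.0022, adjusted p = 0.0051) and that of UCK1 to UCK2 by 0.76 (standard error 0.12, exact p = 0.0022, adjusted p = 0.0051). The ratio of RRM2 to RRM2B fell by 0.58 (standard error 0.10, exact p = 0.0022, adjusted p = 0.0051). In these 3 pairs the ratios of all 6 arrays of one group lay above those of the other.

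The remaining pairs differed less. The ratio of PRPS1 to PRPS2 fell by 0.29 (standard error 0.09, exact p = 0.0043, adjusted p = 0.0076) and that of NME1 to NME2 rose by 0.28 (standard error 0.09, exact p = 0.0065, adjusted p = 0.0091), with overlapping ratios. For IMPDH1 and IMPDH2 the difference of 0.11 was within the spread (standard error 0.09, exact p = 0.26, adjusted p = 0.31). For CTPS1 and CTPS2 the difference was -0.01 (standard error 0.08, exact p = 0.94, adjusted p = 0.94), which does not show that they change alike, and it rests on the brightest probe of each gene. With the mean of all probes it was 0.21 (exact test, adjusted p = 0.0051), since the dim CTPS2 probes showed no rise.

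**Figure D3:**
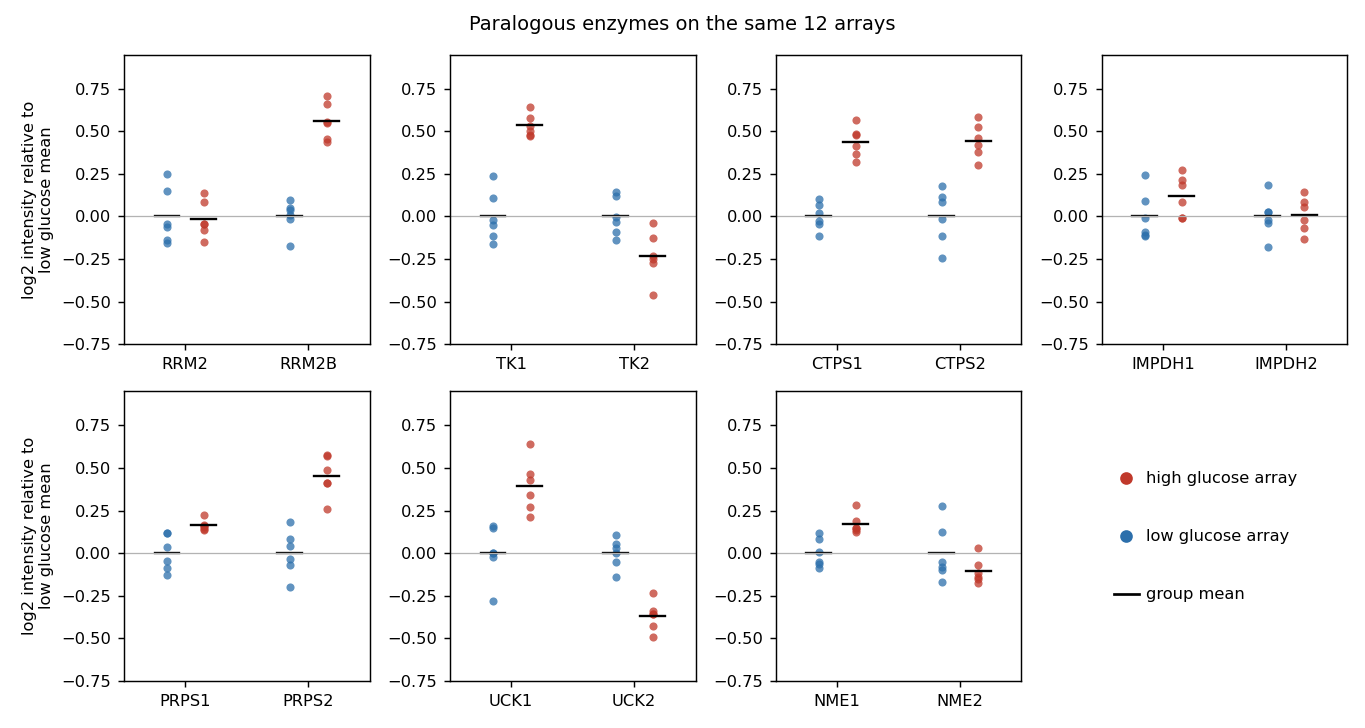
Log2 intensity of each gene of 7 paralog pairs on each array, relative to the gene's mean in low glucose (vertical axis). Blue points are low glucose and red points high glucose arrays, and black lines are group means. TK1 and UCK1 lie higher and TK2 and UCK2 lower in high glucose, and RRM2B lies higher beside an even RRM2. CTPS1 and CTPS2 both lie higher, each gene being shown by its brightest probe only.

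Genes of folate and one-carbon metabolism, not themselves members and not all suppliers of nucleotide synthesis, were of mixed direction. Of 17 measured folate and one-carbon genes, 6 rose and 4 fell, with a median log2 change of 0.02, beside 16.6% and 13.3% of all genes. Most of them are bright (15 had a mean over 100 units). With dim genes left out, 7 rose and 4 fell, beside 27.3% and 22.0% of the genes tested. MTHFD2, a mitochondrial folate enzyme, had 6766 ± 183 units (SD, n = 6) in low and 1959 ± 137 in high glucose, a log2 change of -1.79 (limma, standard error 0.05, adjusted p = 3.7e-20). The mitochondrial MTHFD1L (-0.67) and the cytosolic ALDH1L1 (-0.58) also fell. SHMT1, the cytosolic serine hydroxymethyltransferase, rose from 1046 ± 65.6 to 1902 ± 112 units (log2 change 0.86, standard error 0.06, adjusted p = 2.5e-12). The cytosolic MTHFD1, given above, lay between them with a log2 change of 0.03.

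Of 24 measured genes of nucleotide breakdown, 5 rose and 4 fell, with a median log2 change of 0.01, beside 16.6% higher and 13.3% lower over all genes. UPP1, which splits uridine, fell from 4029 ± 368 to 1959 ± 161 units (SD, n = 6; log2 change -1.04, standard error 0.06, adjusted p = 3.6e-13). UPB1, of the end of pyrimidine breakdown, rose by 0.65 on the log2 scale, PNP, which splits purine nucleosides, by 0.42 and the ecto-nucleotidase gene NT5E by 0.39. Among 19 other salvage, kinase and interconversion enzymes, 6 rose and 3 fell, beside the same 16.6% and 13.3%. Most of these are bright (16 had a mean over 100 units). With dim genes left out, 7 rose and 3 fell, beside 27.3% and 22.0% of the genes tested. UPRT (-0.68) and the uridine kinase relative UCKL1 (-0.55) fell, and the adenylate kinase gene AK1 (0.57) and NME3 (0.47) rose.

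Of 8 measured genes whose products clear damaged or unusual nucleotides from the pool, 4 rose and none fell, beside 16.6% and 13.3% of all genes. Their median log2 change was 0.28. None of the 8 was dim, the lowest group mean being 199.8 units. In the separate fit with dim genes left out, 5 of them rose and none fell, beside 27.3% higher and 22.0% lower of the genes tested there. DCTPP1, a pyrophosphatase of dCTP and its analogues, rose from 4466 ± 362 to 8021 ± 522 units (SD, n = 6; log2 change 0.85, standard error 0.06, adjusted p = 3.7e-12). NUDT1, which hydrolyses oxidised purine nucleotides, rose by 0.62 on the log2 scale, DNPH1 by 0.53 and NUDT5 by 0.38. Of 7 nucleoside transporter genes, SLC29A2 rose (0.33) and SLC29A3 fell (-0.32), beside 16.6% and 13.3% of all genes.

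**Figure D4:**
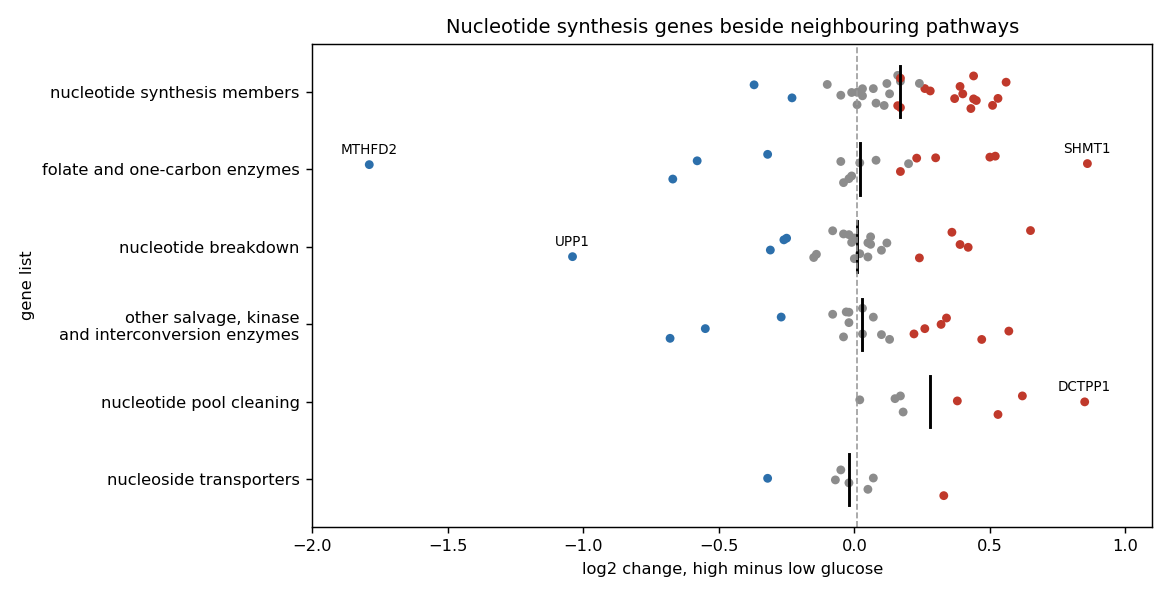
Log2 change, high minus low glucose (horizontal axis), of the 32 nucleotide synthesis genes and of the genes of 5 neighbouring lists (rows, points spread vertically for clarity). Red points rose, blue points fell and grey points did not pass. Black lines are list medians, and the dashed line is the median over all genes, 0.01. MTHFD2 (-1.79), UPP1 (-1.04), SHMT1 (0.86) and DCTPP1 (0.85) lie farthest out.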

How the data were processed

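RNA of 6 high and 6 low glucose HepG2 cultures was measured on Illumina HumanHT-12 arrays. The authors deposited intensity values on a linear scale, already quantile normalized (between arrays, sorted values differ by at most 0.825 units). The submitters' processing notes name GenomeStudio 2010.1, and the methods name limma and CyberT without settings. Background correction and filters are not given in the sources used here, and the lowest intensity, 47.2, shows that background was not subtracted, so folds of dim genes are understated. A further table, with 24 per-sample columns of signals and detection p-values, matches no sample label and was not used.

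Of 48803 probes, 28098 carry 1 symbol in the platform annotation, 13 carry several and 20692 are unnamed. Symbols were updated through gene IDs, and each of 18852 genes is represented by the probe that is brightest on average. Log2 intensities of all genes entered limma 3.58.1 under R 4.3.3, using lmFit and then eBayes with an intensity trend. Benjamini-Hochberg adjustment covered every gene tested, and calls needed an adjusted p under 0.05. Other probes were tested in a fit over all named probes. The number of arrays limits the precision (median SD within groups 0.127 on the log2 scale). All members are named, and of each neighbouring list up to 4 changed genes with the largest change. The members, lists and pairs were chosen with earlier results of these data known. Promoters are those of RefSeq, GRCh38.p14. Figures were drawn with matplotlib 3.10.9.

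Alternatives were log2(signal + 16), averaging all probes per gene, a test after Cyber-T (weight of the prior 10, windows of 101 genes), array weights, a block for the replicate number, a threshold of 0.01, a minimum of 100 units on at least 6 arrays, normexp with offset 16, cyclic loess, and each array left out.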

Additional observations from a re-analysis of the deposited data

Results flagged for a closer look

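In 64 groups of 6 arrays (32 genes, each in high and in low glucose), 2 had 1 array far from the other 5, by Dixon's gap over range (0.64 and 0.72). About 1 in 20 groups would be picked out by chance. For PRPS1, high glucose replicate 2 had 3134 units, where the others had 2939 to 3007. For APRT, high glucose replicate 6 had 3179 units, where the others had 3283 to 3325. Both groups were tight, so the gaps are small in size, and neither gene lost its call without that array. For PRPS1 the call then stood at the edge of the threshold (limma, adjusted p = 0.05 after rounding).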

How the results depend on the processing

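The count of members that rose was 15, and it was 12 to 18 over all alternatives (12 at an adjusted p under 0.01, 13 with cyclic loess, 18 without dim genes, and 13 to 18 with 1 array left out). The count that fell was 2. It was 1 with log2(signal + 16), the test after Cyber-T, the replicate block, array weights and an adjusted p under 0.01, and 1 to 2 with 1 array left out, since the TK2 call ended each time. Of the 17 genes called, 13 kept their direction and their call under every alternative; the exceptions were PRPS1, DHODH, TK2 and DCK. DCK was not called with the mean of its probes, in the test after Cyber-T, with the replicate block or with cyclic loess (adjusted p = 0.28, 0.054, 0.063 and 0.089). PAICS, which was not called, was called with the mean of its probes (log2 change 0.27, adjusted p = 1.2e-04). UMPS was called without dim genes and with normexp (adjusted p = 0.030 and 0.045), and PRPS1 was not called with cyclic loess (0.062). In the fit on the mean of probes UMPS was also called (adjusted p = 0.041), but it has only 1 probe, so its own values were unchanged. Signs turned only for genes not called: IMPDH1 with the mean of its probes (-0.07), ADSL and IMPDH2 with cyclic loess (-0.02 each). With 1 array left out, log2 changes ran from -0.00 to 0.06 for GART, -0.01 to 0.04 for ADSL, -0.03 to 0.05 for IMPDH2, -0.05 to 0.04 for RRM2 and -0.02 to 0.06 for MTHFD1. Pair differences turned sign with the mean of probes for CTPS1 minus CTPS2 (0.21) and IMPDH1 minus IMPDH2 (-0.08). With 1 array left out, CTPS1 minus CTPS2 ran from -0.05 to 0.03. Same-numbered arrays of the groups did not deviate together (r = -0.05 to 0.02 over genes, and 0 of 6 high glucose arrays correlated best with their own number). No pairing by number was seen, which does not exclude that same-numbered cultures were handled together. With the replicate number as a block, 14 members rose and 1 fell. Dim probes, such as those of DTYMK, SAMHD1 and UCK1, limit what can be seen, because background was not subtracted. No cause of these shifts was tested.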
